A study of Mus musculus with 12 samples.

Results

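The comparison is of tumors given recombinant interleukin-18 (IL-18) alone with tumors of mice that received only the empty vector pMCS. Its members are the 4 libraries that the treatment labels put in these groups, 2 for IL-18 and 2 for pMCS, of 12 libraries in the series, and they were described across all genes. The mice were C57BL/6 males of 8 to 10 weeks bearing subcutaneous TC2R tumors, a TRAMP-C2 prostate adenocarcinoma line that carries an activated H-ras. Both groups received pMCS plasmid by sonoporation into muscle on day 4, IL-18 was then injected into the tumor on day 10 in the IL-18 group, and tumors were harvested on day 26. A library was made from the combined RNA of 4 to 6 tumors, and the sources do not say whether the 2 libraries of a group came from different animals. Errors and p-values below thus cover the difference between library preparations, and that may be technical.

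IL-18 is made as an inactive precursor that caspase-1 cleaves. It signals through a receptor of Il18r1 and Il18rap and the adaptor Myd88 to NF-kB, is held in check by the soluble decoy Il18bp, and is best known for driving interferon-gamma from natural killer (NK) cells and T cells, mostly together with IL-12. The question of the comparison is which genes of the whole tumor differ long after the cytokine was given. In whole tumors, fewer cells of a type and less RNA per cell cannot be told apart.

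Of 55450 genes in the table, 20417 had enough counts to be tested with edgeR's quasi-likelihood test. After Benjamini-Hochberg adjustment 0 genes passed at 0.05 (0% of those tested), the smallest adjusted p was 1, and an unadjusted p under 0.05 was met by 219 higher and 358 lower genes. At 0.05 after adjustment DESeq2 called 41 genes and edgeR's exact test 2, Ugt1a1 and the noncoding RNA C030014I23Rik, both lower. The study's own rule was an unadjusted p under 0.05 with a log2 fold change beyond 1. By that rule 169 genes were higher (0.828% of those tested) and 337 lower (1.65%) with IL-18 in the quasi-likelihood fit. These counts differ from those the paper reports for IL-18 from its own edgeR run. Both IL-18 libraries lay above both pMCS libraries for 19.3% of tested genes, and below both for 19.4%. With 2 libraries against 2, an exact two-sided permutation test of a single gene cannot go below 0.333. In what follows "higher" and "lower" calls are those of the study's rule in the quasi-likelihood fit, where every one of them had an adjusted p of 1 by edgeR. Levels are counts scaled to library size (CPM) with TMM factors, given for replicate 1 and then replicate 2. A value left unscaled by TMM is called raw CPM.

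Library depth was 49844915 and 54688919 counts in pMCS and 57953199 and 74784758 in IL-18. The pMCS replicate 1 library stood apart. Its log2 CPM correlated at 0.917 with the other pMCS library and at 0.916 to 0.921 with the IL-18 libraries, while pMCS replicate 2 correlated at 0.963 and 0.953 with IL-18 and the IL-18 libraries at 0.961 with each other. Mitochondrial genes took 8.09% of its counts, against 4.21% in pMCS replicate 2 and 2.99% and 2.67% in IL-18. Its 10 most abundant genes took 16.5%, against 5.27% to 6.22% in the other libraries of the comparison. Of the tumor's lineage markers, Vim (the mesenchymal filament vimentin) stood at 2273 and 2543 CPM in pMCS and 2385 and 1914 in IL-18. The epithelial markers Epcam and Cdh1 were under 5 CPM in all 4 libraries. These markers of the labelled tissue were thus low in both groups.

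The 12 higher genes with the smallest p were each past the rule again when any 1 of the 4 libraries was left out and under all 10 other settings tried. Fam222b, a gene with no settled role, measured 4.71 and 3.70 CPM in pMCS and 19.7 and 18.1 in IL-18 (log2 fold change 2.17, SE 0.46). Ypel5, of the zinc-binding yippee family, stood at 12.1 and 20.9 against 90.7 and 76.8, a log2 fold change of 2.34 (SE 0.50). Groups that did not overlap were a condition for being among these 12 genes, so this is no result of them. For Ypel5 the IL-18 pair differed by less than the pMCS pair on a ratio scale. Lcp1, the leukocyte actin-bundling protein L-plastin, was at 21.5 and 29.7 CPM in pMCS and at 109 and 105 in IL-18 (log2 fold change 2.06, SE 0.54). Mxi1, which competes with MYC for its partner MAX, measured 46.8 and 47.6 against 136 and 213.

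A pair of neuronal genes stood among them. Nefl, the neurofilament light chain, was at 23.6 and 30.7 CPM in pMCS and 78.4 and 79.6 in IL-18 (log2 fold change 1.54, SE 0.34). Gap43, a growth-cone protein, was at 14.5 and 26.8 against 68.8 and 68.4 (log2 fold change 1.73, SE 0.38). For both, the IL-18 libraries nearly coincided and lay more than 2-fold above the higher pMCS library. Rnf149, a ubiquitin ligase, measured 14.8 and 16.7 against 43.9 and 43.4, and its value held when 1 entry that shares its sequence was added (19.8 and 21.4 raw CPM in pMCS, 47.0 and 47.5 in IL-18). Pbrm1, a subunit of the PBAF chromatin remodeling complex, measured 23.9 and 16.1 against 47.6 and 50.2. Pdgfrl, a secreted relative of the PDGF receptor, measured 6.95 and 9.26 against 22.1 and 23.5, and Jam2, a junctional adhesion molecule, 20.6 and 31.9 against 60.1 and 71.2. Cfap97 was at 3.90 and 9.16 against 24.96 and 26.996. The remaining gene, Pcdhgb2, is described below with its cluster. In the 8 libraries of the other treatments Fam222b lay between 10.9 and 24.1 CPM and Rnf149 between 32.5 and 57.3, also above both pMCS libraries. Gap43, Pbrm1, Cfap97, Lcp1 and Jam2 were above both pMCS libraries in all 8 too. Ypel5, Nefl, Pdgfrl and Mxi1 were so in 7, and Pcdhgb2 in 4. Lcp1 had a median of 116 CPM there, above both IL-18 libraries. Pcdhgb2 reached 43.0 CPM there, between its IL-18 values. A level above pMCS was thus not particular to the IL-18 group.

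**Figure D1:**
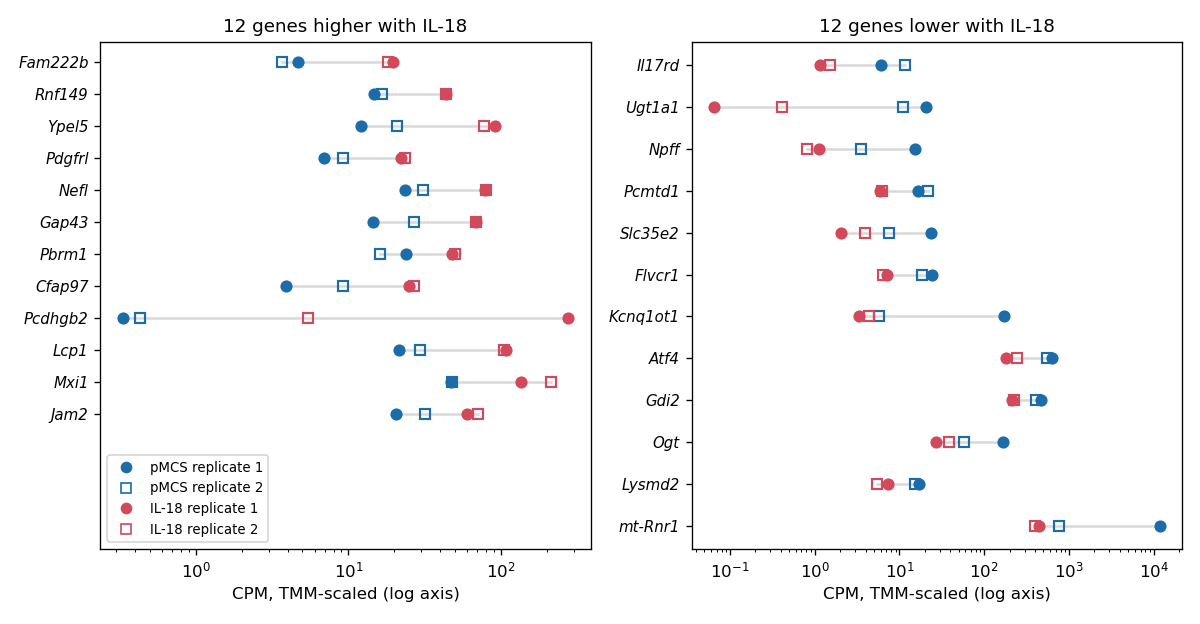
Levels in CPM (log axis, TMM-scaled) of the 12 higher and 12 lower genes with the smallest p, 1 point per library (filled, replicate 1; open, replicate 2; blue, pMCS; red, IL-18; grey lines span the 4 values). Apart from Pcdhgb2 and Mxi1 the higher genes have close IL-18 points, while Kcnq1ot1 and mt-Rnr1 among the lower genes have 1 far pMCS point, replicate 1, at 173 and 11776 CPM.

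Among the lower genes, Il17rd had the smallest p of all. It encodes Sef, a feedback inhibitor of the RAS-MAPK cascade, and measured 6.15 and 11.8 CPM in pMCS and 1.17 and 1.52 in IL-18 (log2 fold change -2.74, SE 0.53). Leaving out each library in turn gave -3.13 to -2.16, and the 8 libraries of the other treatments lay between 5.86 and 12.6 CPM. Of the 20 feedback inhibitors and targets of that cascade it alone passed the rule, 16 had a positive fold change, and the phosphatase gene Dusp4 stood at 38.4 and 61.6 against 65.5 and 188. Pcmtd1, an isoaspartyl methyltransferase relative, measured 16.8 and 21.8 against 5.92 and 6.24. Flvcr1, a heme and choline transporter, measured 24.4 and 18.4 against 7.05 and 6.40. Slc35e2, a solute carrier, was at 23.6 and 7.60 against 2.04 and 3.90, and Npff, a neuropeptide precursor, at 15.5 and 3.56 against 1.12 and 0.823. These 5 genes and Ugt1a1 were past the rule in every fit that left out a library.

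Atf4, the transcription factor at the center of the integrated stress response, stood at 635 and 549.8 CPM in pMCS and at 183 and 244 in IL-18 (log2 fold change -1.47, SE 0.43), and no near-identical copy of it was found. It missed the rule without IL-18 replicate 1 (log2 fold change -1.27). Of the 20 genes of the unfolded protein and integrated stress response list, Atf4 was the only one past the rule, and 15 had a positive fold change (median 0.24, and 0.037 without IL-18 replicate 2). Asns, the asparagine synthetase gene that ATF4 is known to induce, measured 183 and 183 against 161 and 187, and Pdia4 and Xbp1 of the unfolded protein response measured 137 and 187 against 211 and 236, and 7.36 and 17.6 against 26.4 and 34.5. Asns overlapped between the groups, and Pdia4 and Xbp1 lay on the other side of pMCS from Atf4 without passing the rule. Gdi2, which recycles Rab proteins, was at 469.7 and 411 CPM against 214 and 226, at the edge of the rule (log2 fold change -1.004), and missed it without pMCS replicate 1 (-0.90) or IL-18 replicate 1 (-0.96). Ogt, the enzyme that adds O-GlcNAc to proteins, measured 166 and 57.1 against 27.3 and 38.3. It missed the rule without pMCS replicate 1, where its log2 fold change was -0.80 in place of -1.76, and without IL-18 replicate 1 (-1.53). Lysmd2 measured 17.1 and 15.3 against 7.26 and 5.49, and missed the rule without IL-18 replicate 2 (log2 fold change -1.15).

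For 3 called genes the entry alone and the entries that share its sequence gave different values. Ugt1a1, a bilirubin-conjugating enzyme of the liver, was at 20.4 and 10.99 CPM in pMCS and 0.0648 and 0.412 in IL-18. The 9 Ugt1a entries share their later exons, and their sum in raw CPM was 26.3 and 43.4 in pMCS and 49.4 and 59.5 in IL-18, the other way. Its largest share sat on Ugt1a7c in pMCS replicate 2 and in both IL-18 libraries, at 29.1, 42.4 and 29.8 raw CPM, against 2.67 in pMCS replicate 1. Pcdhgb2, a gamma protocadherin, was at 0.331 and 0.432 CPM in pMCS and 277 and 5.43 in IL-18 (log2 fold change 8.52, and 3.82 without IL-18 replicate 1). The 22 gamma protocadherin entries also share their last exons, and summed to 192 and 326 raw CPM in pMCS and 379 and 347 in IL-18, while the entry that held most of the reads was Pcdhgc3, Pcdhga12, Pcdhgb2 and Pcdhgc3 in the 4 libraries. Gapdh, the glycolytic dehydrogenase, measured 1033 and 681 CPM against 238 and 306 and passed the rule as lower (log2 fold change -1.66, SE 0.67). With its 77 near-identical copies, 75 of them pseudogenes, the sum was 1526 and 2032 raw CPM in pMCS and 2276 and 3018 in IL-18. The Gapdh call was lost in 3 of the 4 fits that left out a library. The sums of Ugt1a and Gapdh sequence thus lay on the other side of pMCS from the single entries, and that of the gamma protocadherins differed far less than Pcdhgb2. How reads were assigned among these entries was not tested.

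**Figure D2:**
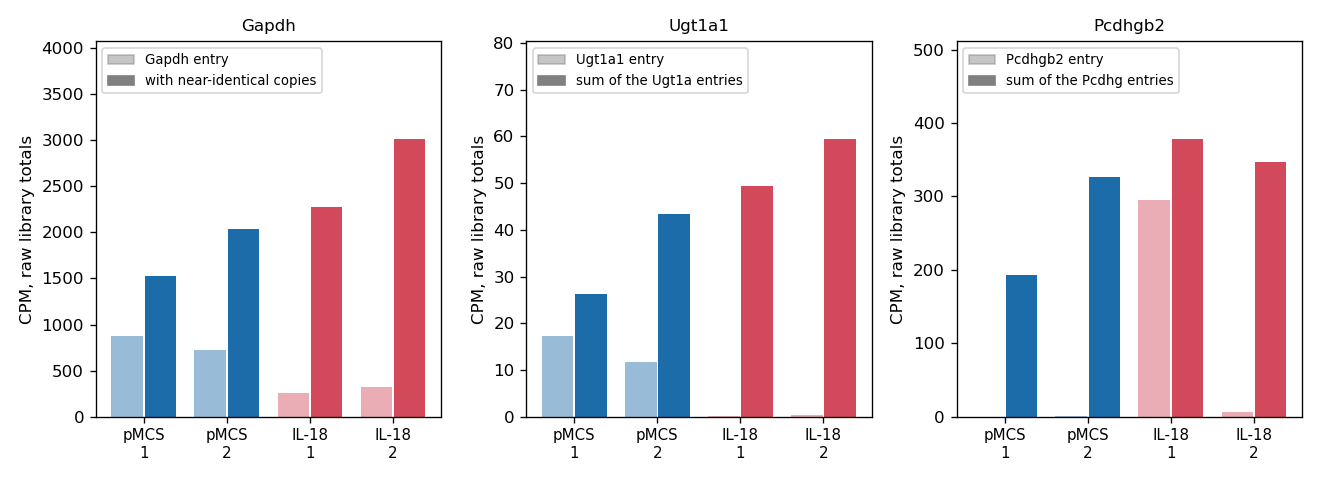
Raw CPM per library of Gapdh alone and with its near-identical copies, of Ugt1a1 alone and with all Ugt1a entries, and of Pcdhgb2 alone and with all gamma protocadherin entries (pale bars, the entry alone; dark bars, the sum). The Gapdh entry is at 876 and 720 in pMCS and 253 and 328 in IL-18, while its sum is at 1526 and 2032 against 2276 and 3018.

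Some of the other large fold changes had the same feature. Nanp, a sialic acid phosphatase, had 9.45 and 2.03 raw CPM in pMCS and 0 in both IL-18 libraries, but with 1 pseudogene copy the sums were 10.95 and 4.22 against 4.95 and 4.75, which overlap. Zbed6, a gene carried in an intron of Zc3h11a, was at 27.1 and 2.66 CPM against 0.697 and 0.574, and with the entry that shares its sequence the raw sums were 23.1 and 108 against 93.2 and 108. Zbtb42, a zinc finger gene, was at 10.97 and 11.7 against 0.729 and 0.549, had no such copy, and missed the rule without either IL-18 library (log2 fold change -4.36 and -3.95). Of the higher genes with the largest fold changes, Mfsd9 measured 0 and 0.605 CPM against 6.35 and 8.33, Htr1b, a serotonin receptor, 0.189 and 0.588 against 4.68 and 4.19, and Golph3l, a Golgi protein, 4.64 and 12.9 against 55.9 and 61.7. Each missed the rule without pMCS replicate 1 (log2 fold change 3.60, 2.91 and 2.18), and Mfsd9 without either IL-18 library too (4.74 and 4.34). Zfp260 (28.9 and 2.84 CPM in IL-18) and A4galt (32.5 and 4.97) rested mainly on IL-18 replicate 1. Samd8 and Mfsd4a reached 18.4 and 30.9, and 1.70 and 5.34, from pMCS values under 4. Of the 4 fits with a library left out, Zfp260 and A4galt passed the rule only in that without IL-18 replicate 2, and Samd8 and Mfsd4a only in that without IL-18 replicate 1.

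A further set of lower genes was highest in pMCS replicate 1. Malat1, an abundant nuclear long noncoding RNA, stood at 5775 CPM there, at 35.9 in pMCS replicate 2 and at 120.2 and 88.5 in IL-18. Its log2 fold change went from -4.80 with that library to 1.54 without it. Neat1, another nuclear RNA, measured 1125 and 216 against 199 and 154, and the imprinted antisense RNA Kcnq1ot1 173 and 5.72 against 3.37 and 4.38. The mitochondrial ribosomal RNAs mt-Rnr2 and mt-Rnr1 were at 20637.5 and 11776 CPM in pMCS replicate 1 against 397 to 807 in the other 3. The small RNA Rmrp was at 32.8 and 8.19 CPM in pMCS against 1.15 and 1.07 in IL-18. Rn7s1, another small RNA, was at 114 and 19.3 against 1.65 and 6.09. Without pMCS replicate 1, mt-Rnr1 had a log2 fold change of -0.86 in place of -3.90 and Kcnq1ot1 of -0.56 in place of -4.52. Noncoding classes made up much of the lower calls. Of 790 long intergenic noncoding RNAs 54 were lower and 4 higher, of 749 antisense RNAs 25 and 4, and of 597 unconfirmed transcripts (the TEC class) 52 and 1, while 15290 protein-coding genes gave 121 lower and 128 higher. The median log2 fold changes of these noncoding classes, in the same order, were -0.57, -0.51 and -1.62, and 0 for each without pMCS replicate 1. They were -0.62, -0.64 and -3.57 without pMCS replicate 2, and -0.45, -0.49 and -3.29 without IL-18 replicate 2. Protein-coding genes had a median of 0.03, and 0.02 without pMCS replicate 1. What caused the difference between the pMCS libraries was not tested.

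Fold change also followed transcript length. Tested genes were split into 5 equal groups by the median length of their transcripts, and the median log2 fold change was -0.38 in the shortest group (up to 1003 bases), -0.11, 0.01 and 0.09 in the next ones and 0.13 in the longest (3903 bases or more). The shortest group held 122 of the lower calls and the longest 47. Without pMCS replicate 1 the shortest group had a median of -0.09, and without IL-18 replicate 1 it had -0.59. Within libraries, the Spearman correlation across genes between length and level relative to the other libraries was -0.14 and 0.12 in pMCS and 0.10 and 0.47 in IL-18. The trend thus also differed between the 2 libraries of a group, and genes are not independent replicates. A fit that took each library's own trend with length as an offset brought the 5 medians to between -0.05 and 0.04.

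**Figure D3:**
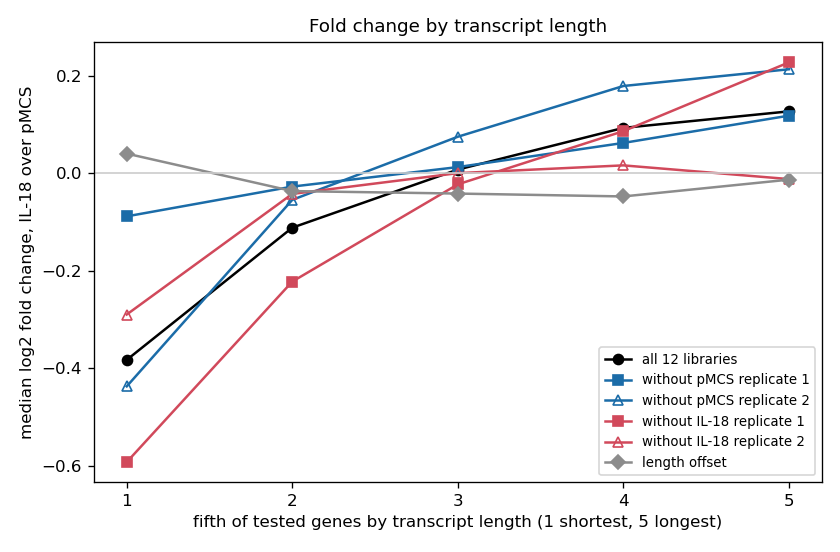
Median log2 fold change of IL-18 over pMCS (vertical) in 5 equal groups of tested genes by transcript length (horizontal, 1 shortest to 5 longest), for the fit to all libraries, for fits without each of the 4 libraries and for the fit with a length offset. The line for all libraries goes from -0.38 to 0.13, the one with the offset stays between -0.05 and 0.04.

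Cytosolic ribosomal proteins had a median log2 fold change of -0.65, against -0.02 for all tested genes, with 75 of 78 negative. Below both pMCS libraries lay 60 of 78, against 19.4% of all tested genes. None passed the rule, by which 1.65% of all tested genes were called lower. Rps25 measured 3036 and 806 CPM in pMCS and 684 and 557 in IL-18, and Rpl41 3019.7 and 1377 against 1104 and 646. Rps27 measured 2307 and 1034 against 812 and 698, and Rpl35 3368 and 1354 against 1139 and 849.8. In all 4 genes pMCS replicate 1 stood more than 2-fold above pMCS replicate 2, and the step from pMCS replicate 2 to IL-18 was smaller. Adding the near-identical copies of each, mostly pseudogenes, kept the order of the 4 libraries. The list's median was -0.25 without pMCS replicate 1 and -0.20 with the length offset. Its mean log2 CPM was 10.79 and 10.03 in pMCS and 9.97 and 9.68 in IL-18, which put IL-18 replicate 1 near pMCS replicate 2.

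Messenger RNAs of ribosomal proteins are known to begin with a run of pyrimidines, the 5′ terminal oligopyrimidine element that LARP1 binds below mTOR. To show what these 4 genes have at their start, the window from 20 bases before the annotated RefSeq start to 10 bases from it is given below for each, 5′ to 3′ on the coding strand (GRCm38.p6), with each CTTTC or CTTTT in capitals. The windows are chr9:44407694-44407723 on the plus strand for Rps25, and on the minus strand chr10:128549159-128549188 for Rpl41, chr3:90213639-90213668 for Rps27 and chr2:39005122-39005151 for Rpl35.
Rps25: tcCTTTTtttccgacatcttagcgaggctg
Rpl41: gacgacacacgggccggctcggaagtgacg
Rps27: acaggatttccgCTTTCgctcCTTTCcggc
Rpl35: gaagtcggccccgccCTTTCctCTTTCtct
CTTTC or CTTTT, which can overlap by 1 base, stood in this window in 19 of the 57 ribosomal protein genes with an entry, 33.3%, against 7.89% of 12813 tested genes and 8.44% of all 27025 genes with one. On the opposite strand the shares were 5.26%, 5.87% and 7.27%. Rpl41 had neither motif in its window. A match describes the letters only.

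A pair of translation factors whose messages are also known to carry such starts had positive fold changes. Eef2, the elongation factor that moves the ribosome, measured 1582 and 2735 CPM in pMCS and 3267 and 4454 in IL-18 (log2 fold change 0.84, SE 0.42), and Eef1a1, which delivers transfer RNA, 7300.2 and 9396 against 10742 and 11119. Neither passed the rule. Their median transcript lengths were 3089 and 1794 bases, against 577, 526.5, 345 and 946 bases for Rps25, Rpl41, Rps27 and Rpl35. Over the 19 elongation and initiation factors 10 fold changes were positive and 9 negative, with a median of 0.04.

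Respiratory chain genes of both genomes had mostly negative fold changes. Among all tested genes 19.4% lay below both pMCS libraries, 19.3% above both, and 1.65% were called lower. All 13 mitochondrially encoded subunits had a negative fold change (median -1.10), 10 lay below both pMCS libraries, and 3 passed the rule as lower. These were mt-Nd3 (972 and 467 CPM in pMCS against 316 and 131), mt-Nd6 (2303 and 626 against 531 and 343) and mt-Co2 (8320.1 and 4098 against 3295 and 2193). The next, mt-Co3, was at 7757 and 4458 against 3171 and 1927 and missed it. The pMCS libraries were above the IL-18 ones for each of these genes, with replicate 1 the higher. Without pMCS replicate 1 none of the 3 kept its call (log2 fold changes of mt-Nd3, mt-Nd6 and mt-Co2 -1.07, -0.52 and -0.58) and the list's median was -0.53. Without IL-18 replicate 2 none did either (-1.17, -1.44 and -0.90). Their nuclear pseudogene copies did not alter the order, as mt-Co2 with its copies summed to 14005 and 6680.2 raw CPM against 5511 and 4599. The 74 nuclear-encoded subunits had a median of -0.55, with 42 below both pMCS libraries, 3 above and none past the rule. Their mean log2 CPM was 7.71 and 7.28 in pMCS and 7.24 and 6.79 in IL-18. IL-18 replicate 1 was thus near pMCS replicate 2. Cox6c of complex IV measured 512 and 260 CPM against 201 and 146, and Ndufb4 of complex I 162 and 74.8 against 67.2 and 44.4. The nuclear median was -0.27 without pMCS replicate 1 and -0.28 without IL-18 replicate 2. With the length offset it was -0.18 and the mitochondrial one -0.86. Of 77 mitochondrial ribosomal proteins 49 lay below both pMCS libraries (median -0.36, and -0.20 without IL-18 replicate 2), and none passed the rule.

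**Figure D4:**
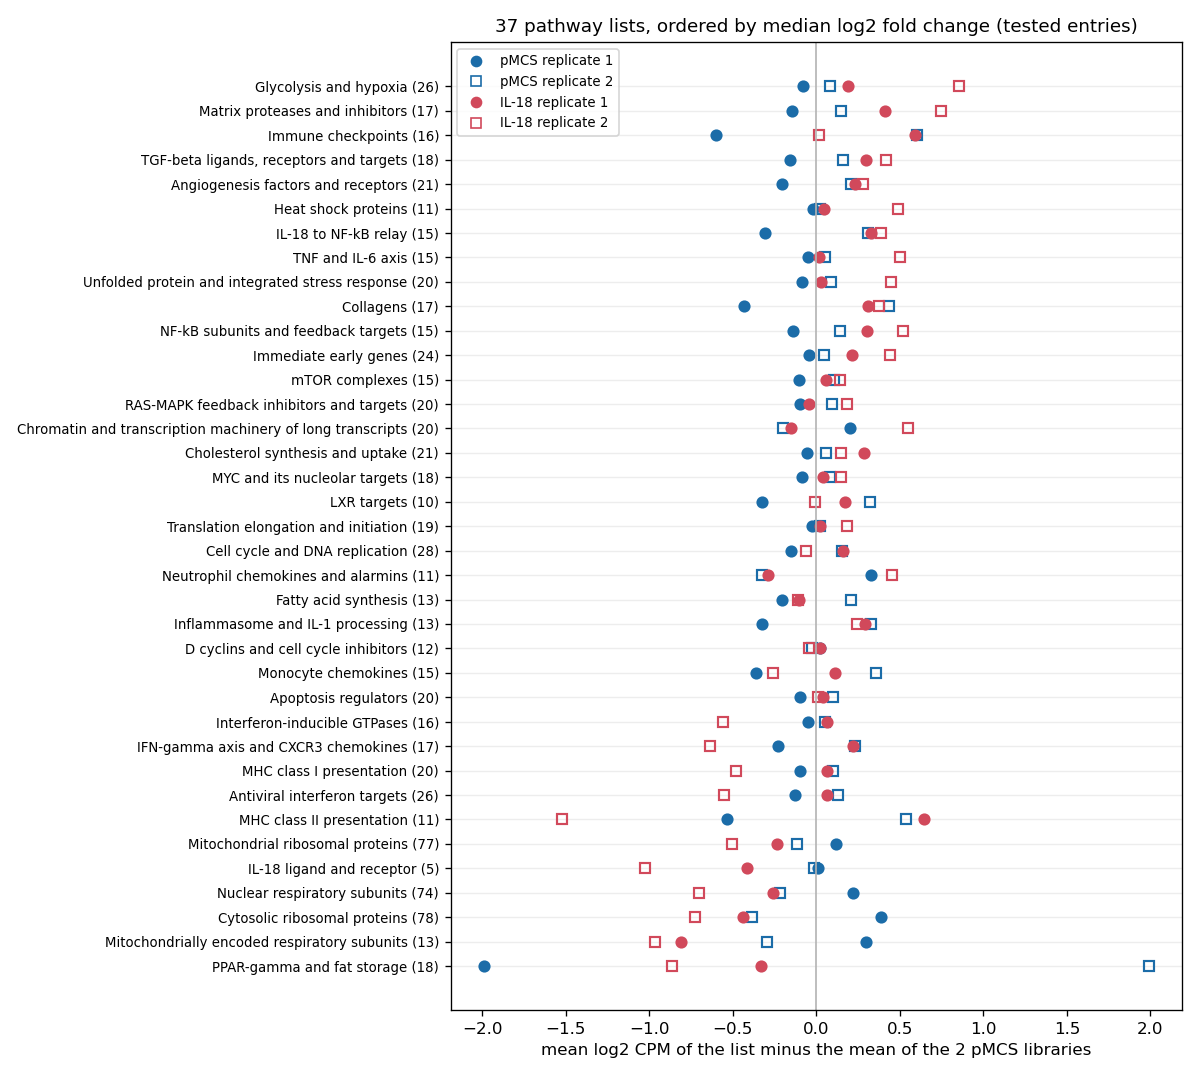
Mean log2 CPM of each of 37 pathway lists in the 4 libraries, less the mean of the 2 pMCS libraries (horizontal), lists ordered by median log2 fold change with the number of tested entries in brackets. The glycolysis and matrix protease lists have both IL-18 points to the right of both pMCS points, and the ribosomal and respiratory lists have both to the left, with pMCS replicate 1 farthest right.

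Glycolysis and hypoxia genes had mostly positive fold changes. Of 26 tested entries 24 had a positive fold change (median 0.59), 16 lay above both pMCS libraries, 1 below, and Gapdh, described above, was the only one past the rule. The shares over all tested genes were 19.3% above both, 19.4% below both, 0.828% called higher and 1.65% called lower. Hif1a, the oxygen-regulated transcription factor, measured 103 and 145 CPM in pMCS and 163 and 262 in IL-18. Among glycolytic enzymes, Pfkp was at 30.7 and 41.8 against 61.5 and 102 (log2 fold change 1.17, SE 0.53), Hk1 at 129.9 and 192 against 254 and 396, and Aldoa at 579 and 726 against 965 and 1444. Pgk1 was at 1001 and 1028 against 1479 and 1790.4, Ldha at 1011 and 1049.9 against 1336 and 1574 and Eno1 at 785 and 1168 against 1301 and 1669, and these had smaller fold changes. None of these enzymes passed the rule. The hypoxia-induced Adm and Ndrg1 measured 23.8 and 23.2 against 32.0 and 81.7, and 169 and 215 against 235 and 436. In each of these 9 genes IL-18 replicate 2 was the higher of its pair. Without it the list's median was 0.28, without IL-18 replicate 1 it was 0.80, and it was 0.61 and 0.64 without pMCS replicates 1 and 2 and 0.53 with the length offset.

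Genes that remodel the matrix mostly had positive fold changes too. Of 17 proteases and inhibitors 14 had a positive fold change (median 0.54), 10 lay above both pMCS libraries and none below. By comparison, 19.3% of all tested genes lay above both, 19.4% below both, and 0.828% were called higher. Mmp10, stromelysin-2, measured 11.9 and 19.8 CPM in pMCS and 43.4 and 77.4 in IL-18 and passed the rule (log2 fold change 1.93, SE 0.80), but in only 1 of the 4 fits that left out a library, that without IL-18 replicate 1. Plau, the urokinase that activates plasminogen, was at 58.3 and 115 against 146 and 179. Timp2, an inhibitor of metalloproteases, was at 477 and 640.2 against 900.3 and 896, Mmp14, a membrane-bound collagenase, at 241 and 331 against 415 and 418, and Mmp2, a gelatinase, at 83.9 and 134 against 167 and 213. Apart from Mmp10 none of these genes passed the rule. The list's median ran from 0.33, without pMCS replicate 1, to 0.88, without pMCS replicate 2.

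Tgfb1, which encodes the ligand TGF-beta1, had the smallest p of its pathway, at 66.2 and 86.6 CPM in pMCS and 122 and 139 in IL-18 (log2 fold change 0.77, SE 0.24), a change too small for the rule. Its groups did not overlap, and the 8 libraries of the other treatments, at 98.0 to 131 CPM, also lay above both pMCS libraries. Of 18 tested ligands, receptors and targets 16 had a positive fold change (median 0.35). Above both pMCS libraries lay 11, against 19.3% of all tested genes. The list's median was 0.24 and 0.58 without pMCS replicates 1 and 2, and 0.46 and 0.29 without IL-18 replicates 1 and 2. With the length offset it was 0.25. The type I receptor Acvr1 measured 17.95 and 23.7 against 27.3 and 37.1, the induced matrix protein Tgfbi 90.1 and 130.4 against 226 and 157, the inhibitory Smad7 4.66 and 9.40 against 10.6 and 13.5, and the shared Smad4 39.9 and 49.6 against 52.7 and 64.8. Pdgfrb, a receptor of mural cells, was at 40.2 and 52.1 against 80.3 and 92.8 (log2 fold change 0.91, SE 0.34), and Rgs5 of pericytes at 66.4 and 94.7 against 102 and 199 (0.90, SE 0.39). Of the 12 fibroblast and mural markers 7 had a positive and 5 a negative fold change. Above both pMCS libraries lay 6 of them and below both 1, against 19.3% and 19.4% of all tested genes. The median of these 12 markers was 0.32, and 0.18 without pMCS replicate 1 and 0.13 without IL-18 replicate 2.

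Of 17 tested genes among 19 upstream regulators taken from the study's text on IL-18, none passed the rule, 3 lay above both pMCS libraries, 3 below and 11 overlapped. Of all tested genes 19.3% lay above both and 19.4% below both, and 0.828% were called higher and 1.65% lower. These counts thus do not set the regulators apart. Tnf was at 1.68 and 0.138 CPM in pMCS and 0.648 and 0.611 in IL-18, Il6 at 0.189 and 0.847 against 0.243 and 0.474, and Myc at 29.5 and 39.0 against 33.1 and 38.3. Pparg, of the fat program, was at 3.33 and 9.02 against 4.62 and 6.08. The other 2 had too few counts to test, Pgr with 8 counts in 1 IL-18 library and Wnt3a with 0 in all 4 libraries. A regulator's own message need not follow its activity, and these levels describe the message only.

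Markers of macrophages and monocytes had positive fold changes in 16 of 16 cases (median 0.51), of which 6 lay above both pMCS libraries. Over all tested genes 19.3% lay above both and 0.828% were called higher. Arg1, the arginase of alternatively activated macrophages, measured 40.4 and 53.2 CPM in pMCS and 87.5 and 202 in IL-18 and was the 1 past the rule (log2 fold change 1.63, SE 0.70). It kept the call only without IL-18 replicate 1, and its log2 fold change was 0.91 without IL-18 replicate 2, 1.44 without pMCS replicate 1 and 1.87 without pMCS replicate 2. The adhesion molecule Itgam was at 7.76 and 15.8 against 22.1 and 38.3, the endotoxin co-receptor Cd14 at 20.8 and 24.7 against 35.3 and 28.1, the lysosomal Cd68 at 39.6 and 54.0 against 62.4 and 97.2 and Nos2 at 2.25 and 2.61 against 3.42 and 5.06. The summed level of the 16 markers was 539.9 raw CPM in pMCS replicate 1, 1236 in pMCS replicate 2 and 1449.9 and 1334 in IL-18, so that the widest gap lay between the pMCS libraries. The median was 0.07 without pMCS replicate 1, 0.30 without IL-18 replicate 1 and 1.04 without pMCS replicate 2. Lcp1, above, stood apart from the other 7 pan-leukocyte markers, none of which passed the rule (median 0.31 over all 8, and 0.07 without pMCS replicate 1).

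**Figure D5:**
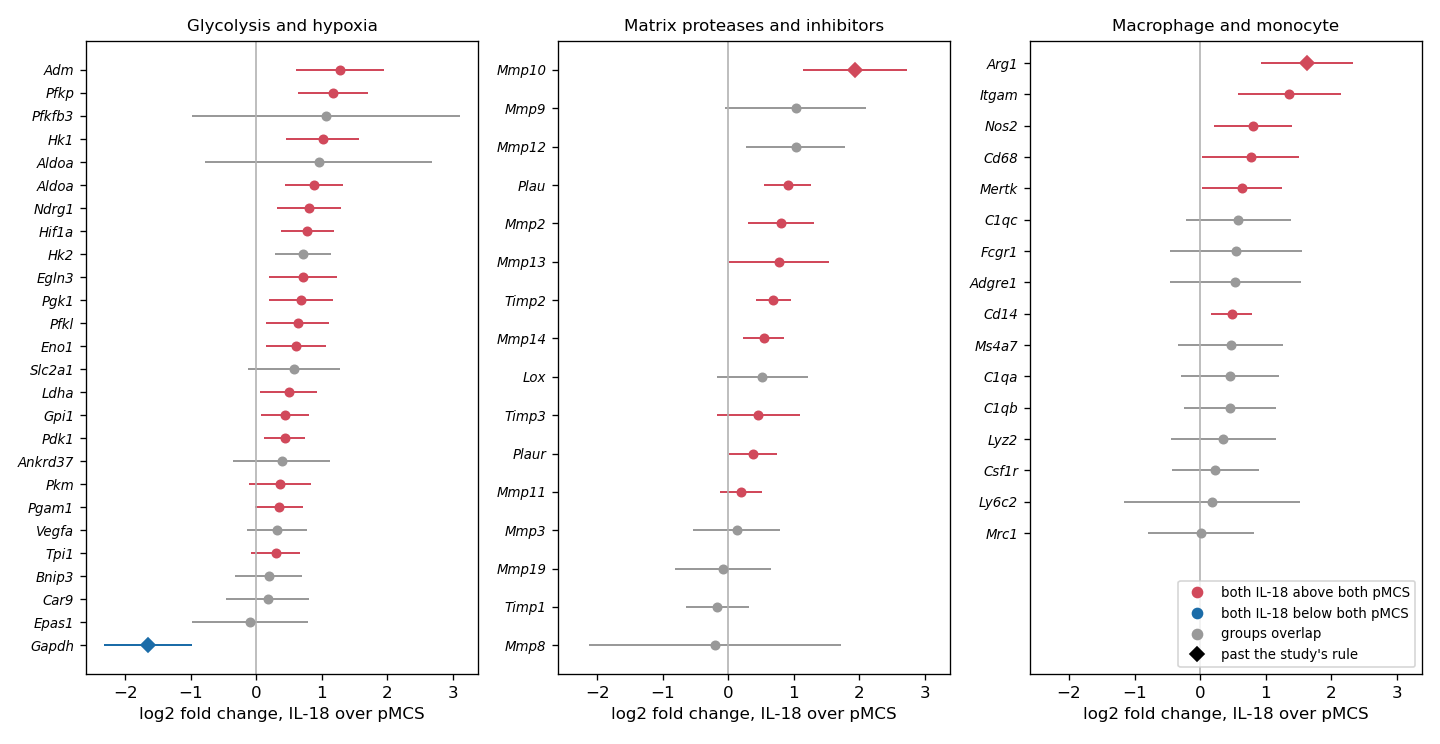
Log2 fold change of IL-18 over pMCS with its standard error (bars) for the glycolysis and hypoxia genes, the matrix proteases and their inhibitors and the macrophage and monocyte markers (red, both IL-18 libraries above both pMCS libraries; blue, both below; grey, overlapping; diamonds, past the study's rule; 1 matrix entry is not shown). Most points lie right of 0, and the diamonds are Gapdh at -1.66, Mmp10 at 1.93 and Arg1 at 1.63.

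Cytotoxic markers were split. Cd244a, an NK cell receptor, passed the rule at 1.61 and 2.66 CPM against 4.62 and 4.23 (log2 fold change 1.05, SE 0.42), but kept its call in just 1 of the 4 fits with a library left out, that without pMCS replicate 2 (1.49). The killing molecules perforin (Prf1) and granzyme B (Gzmb) measured 2.98 and 4.34 against 6.22 and 9.54, and 3.07 and 5.46 against 8.77 and 8.96, and neither passed the rule. The 11 NK and killer cell markers had a median of 0.01, which ran from -0.12 without IL-18 replicate 1 to 0.36 without IL-18 replicate 2. T cell markers were low, with a summed level of 12.7 and 20.3 raw CPM in pMCS and 23.3 and 8.06 in IL-18. Cd3d of the T cell receptor complex was at 0.804 and 1.90 CPM against 1.28 and 0.1996, and Trac, its alpha chain constant region, at 1.70 and 1.76 against 2.19 and 0.299. The summed level was thus above both pMCS libraries in IL-18 replicate 1 and below both in IL-18 replicate 2.

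No gene of the IL-18 axis itself passed the rule. Il18 measured 3.55 and 2.28 CPM in pMCS and 2.74 and 1.57 in IL-18, the decoy Il18bp 3.50 and 3.13 against 2.58 and 1.57, and the receptor chain Il18r1 0.426 and 0.449 against 0.211 and 0.0873. Its partner Il18rap was at 30.0 and 33.9 against 30.7 and 16.2. Il18 and Il18rap overlapped between the groups. The ligand and receptor list of 5 genes also holds the decoy Il18bp and Sigirr, the latter at 17.9 and 24.1 against 13.1 and 17.4. All 5 genes had a negative fold change (median -0.46, which was -0.98 without IL-18 replicate 1 and -0.35 without IL-18 replicate 2). Of the relay to NF-kB, Myd88 stood at 39.9 and 50.8 against 49.4 and 46.1, the kinase gene Irak1 at 28.9 and 30.0 against 46.7 and 47.6, and the ubiquitin ligase Traf6 at 13.7 and 14.9 against 18.2 and 21.3. Of its 15 genes 12 were positive (median 0.25) and none passed, and the median was 0.085 without pMCS replicate 1 and 0.56 without pMCS replicate 2. Tnfaip3, the NF-kB feedback inhibitor A20, was at 0.710 and 5.72 against 17.0 and 12.1 (log2 fold change 2.17, SE 1.49) and did not pass either.

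No interferon gene tested passed the rule. Ifng was at 0.189 and 0.0691 CPM in pMCS and 0.130 and 0 in IL-18, the last with 0 counts of 74784758, which allows up to 0.0401 raw CPM. Over 5 lists of interferon axis genes, inducible GTPases, antiviral targets and class I and II presentation, 0 of 90 tested entries passed the rule, 3 lay above both pMCS libraries and 14 below. Over all tested genes the shares were 0.828% called higher, 1.65% called lower, 19.3% above both and 19.4% below both. So low a share of calls does not make their absence among 90 entries a trait of these lists. The T cell chemokine Cxcl10 measured 43.3 and 40.6 against 34.5 and 23.9, the peptide transporter Tap1 13.0 and 13.3 against 8.04 and 5.01, and Ccl5 71.4 and 67.3 against 56.1 and 35.5. Ccl12, a monocyte chemokine, measured 11.4 and 11.9 against 25.3 and 23.7 (log2 fold change 1.08, SE 0.65). The medians of the 5 lists lay between -0.32 and -0.12, but their sign rested on single libraries. Without IL-18 replicate 1 they ran from -2.09 (class II) to -0.41 (class I), without IL-18 replicate 2 from -0.019 (antiviral targets) to 0.40 (class II), and without pMCS replicate 2 from -0.095 (GTPases) to 0.20 (class II).

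Single genes of other immune and stress programs passed the rule. Il33, an alarmin of the IL-1 family, measured 149 and 203 CPM in pMCS and 349.5 and 612 in IL-18 (log2 fold change 1.45, SE 0.48). The 8 libraries of the other treatments had Il33 at 216 to 467 CPM, also above both pMCS libraries. Lif of the IL-6 family measured 2.46 and 3.35 against 4.88 and 9.69 (1.32, SE 0.55), and the early response factor Egr2 3.29 and 2.54 against 5.96 and 14.7 (1.83, SE 0.63). For all 3 the groups did not overlap and IL-18 replicate 2 was the higher of its pair. Without it their log2 fold changes were 0.995, 0.75 and 1.04 and none passed the rule. Nor did Il33 or Lif without pMCS replicate 1 (1.24 and 1.12), or Lif and Egr2 without pMCS replicate 2 (1.59 and 1.68). Dusp1 at 21.5 and 24.6 against 34.7 and 50.7 and the cell cycle inhibitor Cdkn1a at 49.6 and 52.0 against 65.6 and 128 had log2 fold changes of 0.89 (SE 0.38) and 0.93 (SE 0.37), too small for the rule. Hspa1a, an inducible heat shock protein, was at 5.53 and 13.0 against 14.5 and 44.8 and also passed, but not without IL-18 replicate 2 (log2 fold change 0.64) or pMCS replicate 1 (1.19). Its near-identical neighbor makes the entry uncertain, and with that copy the raw sums were 57.6 and 80.9 against 79.4 and 212, which overlap. Ccnd3, a D cyclin, was at 47.6 and 24.9 against 73.6 and 84.5, and Casp9, an initiator caspase, at 0.828 and 2.21 against 13.3 and 12.3. Both missed the rule, though their groups did not overlap.

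Markers of neighboring tissues differed between libraries of one group. Adipocyte markers had a median log2 fold change of -3.09, but 0 of 8 lay below both pMCS libraries. Adipoq, the fat hormone adiponectin, was at 0.449 and 59.4 CPM in pMCS and 5.48 and 1.33 in IL-18, and the list's sum was 65.8 and 1206 raw CPM against 169 and 93.5, so the value rested on pMCS replicate 2. Without that library the list's median was 2.32. Of the 18 genes of the PPAR-gamma and fat storage list, with a median of -1.35, none passed the rule, and it was 0.71 without that library. Liver genes were present in both groups, with Alb (albumin) at 197 and 199 against 133 and 171 and Ttr (transthyretin) at 21.97 and 20.2 against 13.9 and 19.0. Of 17 liver markers 10 lay below both pMCS libraries (median -0.37, and -0.15 without IL-18 replicate 1), and Ugt1a1 was the 1 past the rule. Over all tested genes 19.4% lay below both and 1.65% were called lower. The part of these tissues in the results above was not tested.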

How the data were processed

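The authors read stranded poly(A) TruSeq libraries (the labels say total RNA) paired-end on a NovaSeq, trimmed them with Cutadapt and perl programs, checked them with FastQC 0.11.3, aligned with HISAT2 and quantified with StringTie and gffcompare. Not given in the sources used here are the genome build, the annotation and how counts were derived. The deposited values are whole counts per gene, used as raw counts. Names and lengths came from GENCODE M21.

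In R 4.3.3, edgeR 4.0.16 filtered genes (filterByExpr), scaled with TMM and fitted all 12 libraries with a quasi-likelihood model, each group having its own mean (common dispersion 0.343), adjusted by Benjamini-Hochberg. The method was tested on simulated data. DESeq2 1.42.0 was an alternative. At these depths 3 counts are 0.0401 to 0.0602 raw CPM. Copies were sought with blastn (at least 95% identity over 200 bases).

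Named genes were, among annotated genes with average log2 CPM of at least 1 and groups that did not overlap, the 12 with the smallest p and 8 with the largest change in each direction, up to 4 per list, and the study's regulators; others were chosen after their values were seen. Members, lists and rules were chosen with earlier results of these data known. Single values of 2 list members are not reported here.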

Additional observations from a re-analysis of the deposited data

How the results depend on the processing

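The count of genes at an adjusted p under 0.05 was 0 in 11 of 14 alternatives. It was 291 with no filter on low counts (of which 275 had passed the filter), 41 with DESeq2 and 2 with the exact test, and 0 in each fit with a library left out. The higher calls, 169, became 531 with no filter, 264 with IL-18 and pMCS fitted alone, 264 with DESeq2, 110 with protein-coding genes only (chosen after seeing the data), and 93 to 532 with a library left out. The lower calls, 337, became 1003 with no filter, 585 with DESeq2, 122 with protein-coding genes only, and 77 to 724 with a library left out. The deviations of IL-18 and pMCS replicates 1 from their group means correlated at -0.03 over 12780 genes. Between 2 of the 6 groups this correlation ran from -0.40 to 0.50. Whether replicate numbers pair the samples cannot be told from these values. A replicate block gave 204 higher and 257 lower calls, 361 of them shared with the fit without it, and with a length offset 203 and 245.

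Signs turned for small or uneven values. Over the 4 fits with a library left out, the log2 fold change ran from -6.06 to 0.035 for Ifng (the lowest against a library with 0 counts, so no bound), -0.089 to 0.29 for Myd88, -1.38 to 2.17 for Tnf, -1.23 to 0.95 for Il6, -0.13 to 0.30 for Myc, -0.75 to 0.71 for Pparg, -0.18 to 0.040 for Asns, -4.48 to 2.94 for Adipoq, -5.76 to 1.54 for Malat1 and -2.52 to 0.34 for Trac. Tnf was 0.072 under the block and 0.11 with the block and the offset. The cause was not tested. A group reduced to 1 library is assumed to vary like the other groups.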
